A study of Mus musculus with 8 samples.

Results

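Genes that mark T cells, B cells and natural killer (NK) cells were examined in the liver of NZO and B6 mice. The 10 genes were Cd3d, Cd3e, Cd3g, Cd4, Cd8a, Cd79a, Cd79b, Ms4a1, Klrb1c and Nkg7, taken by their symbol in the array files from 34836 gene names. They are represented by 15 of the 55681 probes of the array, and each probe was kept separate. NZO mice (NZO/HiBomDife) are an obese, diabetes-susceptible strain, and B6 mice (C57BL/6) are lean and diabetes-resistant. All mice were males of 6 weeks of age on a high fat diet with 45% fat, so no group on another diet was compared here. Total RNA of whole liver was labelled with Cy3 and hybridised to 1-colour Agilent arrays, with 4 arrays for each strain, and the samples had been selected for high RNA integrity. The sample titles carry numbers but do not state that each is a separate mouse. The p-values set a strain difference against the spread between these samples.

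T cells recognise antigen through a receptor that signals by the CD3 chains, with CD4 or CD8 as co-receptor, and B cells use an antibody-like receptor that signals by CD79a and CD79b. NK cells kill target cells without such a rearranged receptor and share cytotoxic granule proteins with CD8 T cells. The liver holds resident and passing lymphocytes, among them many NK and NKT cells, within a tissue whose RNA comes mostly from hepatocytes. In RNA of a whole tissue, fewer cells of a type and less RNA per cell cannot be told apart. The paper reports sequence differences between B6 and NZO mice. Whether any lie under a probe and alter its binding was not tested.

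Levels are given as the log2 of the processed signal, which is the intensity after background subtraction, minus the 75th percentile of the array. A value of 0 is therefore the level of the 75th percentile of all spots, and levels of different probes cannot be set against each other because probes bind differently. The 75th percentile lay between 119 and 142 intensity units in NZO and between 136 and 159 in B6. The share of spots well above background was 50.4% to 55% in NZO and 53.1% to 60.1% in B6, with 0 saturated spots. Values are listed in the order of the sample numbers, which are 003, 007, 009 and 011 for NZO and 009, 010, 011 and 015 for B6.

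Each probe is a sequence of 60 bases placed on the mouse genome (mm9) by the files. Those of Cd3d, Cd8a, Cd79a, Klrb1c and Nkg7 shown here were chosen because they gave the largest difference (Cd3d), signals that some arrays did not measure above background (Cd8a, Cd79a and Klrb1c) and the larger of the differences of the Nkg7 probes, and they are in lower case throughout since no stretch within them is singled out.
Cd3d, probe A_51_P285206: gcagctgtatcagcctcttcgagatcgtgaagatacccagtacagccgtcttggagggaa
Cd8a, probe A_52_P150547: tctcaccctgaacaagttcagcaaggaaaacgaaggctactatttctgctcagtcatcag
Cd79a, probe A_66_P120987: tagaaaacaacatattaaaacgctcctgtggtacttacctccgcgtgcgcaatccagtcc
Klrb1c, probe A_52_P599514: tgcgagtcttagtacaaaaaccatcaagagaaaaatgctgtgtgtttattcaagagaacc
Nkg7, probe A_51_P499195: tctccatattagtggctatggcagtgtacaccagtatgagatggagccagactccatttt
The files place the Cd3d probe at chr9:44794171-44794402 on the plus strand and the Cd79a probe at chr7:25684357-25684614 on the plus strand. These spans of 232 and 258 bases are longer than the probe, so both probes join separate stretches of the genome. The Cd8a probe lies at chr6:71323885-71323944 (plus strand), the Klrb1c probe at chr6:128734770-128734829 (minus strand) and the Nkg7 probe at chr7:50693148-50693207 (plus strand). The letters AATAAA, the signal for cleavage near the end of a transcript, occur in 3 of the 15 probes, namely those of Cd3e, 1 of Cd4 and 1 of Cd79a, and in 10.1% of all probes.

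A probe entered the test when all 4 arrays of either strain measured it well above background, which held for 10 of the 15 probes, of 8 genes. Two-sided limma tests with Benjamini-Hochberg adjustment over 27639 probes called a probe when the adjusted p was at most 0.05 and the log2 fold change at least 0.7 in either direction. By this rule 2 of the 10 probes were lower in NZO liver, Cd3d and Cd79b, beside 5.28% of all tested probes. None of the 10 was higher (0 probes), also with unadjusted limma p-values and with the methods' t-test, beside 4.33% of all tested probes. With 10 probes these counts are a description of the list and were not tested against the background. Over the 8 genes, each by its brighter tested probe, the median log2 fold change (NZO minus B6) was -0.34 with 6 genes below 0, while over all tested probes it was 0.01 with 48.4% below 0. These 8 are not all members, and Cd3g and Ms4a1 entered the test through B6 alone. Over the 6 genes well above background on all 8 arrays the median was -0.14 with 4 below 0. After normexp, a model-based background correction, the median of the 8 was 0.00 with 4 below 0.

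**Figure D1:**
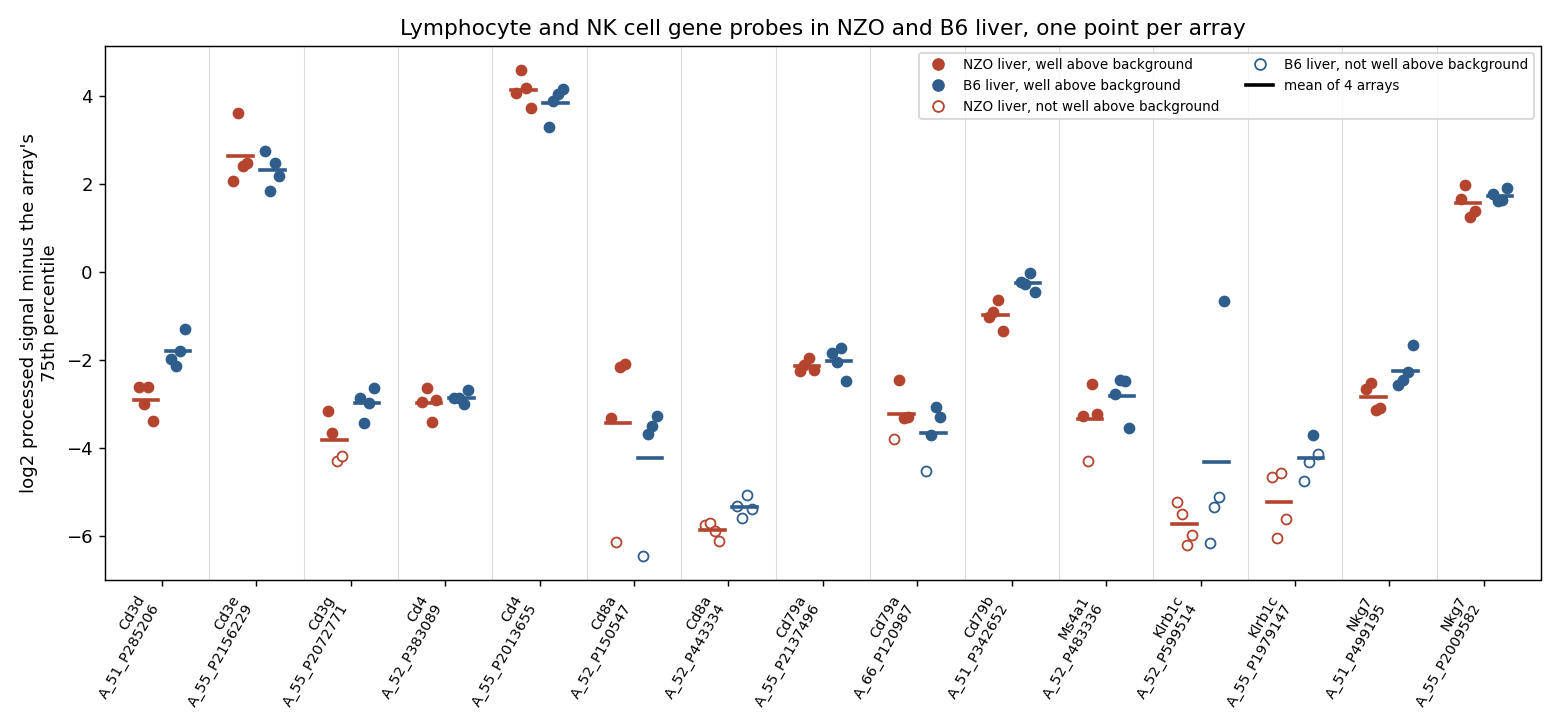
Level of each of the 15 probes on each array, as log2 processed signal minus the 75th percentile of the array (y axis), for 4 NZO arrays (red) and 4 B6 arrays (blue), with the mean of the 4 arrays as a bar. Filled points are well above background and open points are not. The points of the strains do not overlap for Cd3d, Cd79b and the Cd8a probe A_52_P443334, of which the last is open on all 8 arrays. The share of all probes without overlap is not given here, so this describes the picture only.

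The CD3 chains form the signalling part of the T cell receptor. Cd3d, which encodes CD3 delta, had levels of -2.62, -3.01, -2.63 and -3.40 in NZO and of -1.99, -2.14, -1.81 and -1.30 in B6. Every NZO array lay below every B6 array. The means were -2.91 ± 0.37 and -1.81 ± 0.37 (SD, n = 4 each), a log2 fold change of -1.10 (SE 0.24, limma adjusted p = 0.0161), so that the signal was 2.14-fold higher in B6.

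The difference in Cd3d was -1.16 among the arrays of the first scan day and -1.10 among those of the second, and -0.89 on the only slide that held both strains (1 NZO and 2 B6 arrays). It was called whichever single array was left out, with log2 fold changes from -1.21 to -0.93. The call was lost with the slide as a fixed term (-0.89), where only that slide's 1 NZO and 2 B6 arrays inform the strain difference. Its size fell with another treatment of the background, to -0.23 after normexp correction (limma adjusted p = 0.151) and to -0.40 in the raw median intensities of the deposited table minus their 75th percentile (limma adjusted p = 0.0706). In these raw intensities without scaling, where the median of all probes was -0.15, it was -0.59 (limma adjusted p = 0.0129), below the fold limit.

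Cd3g encodes CD3 gamma, and its transcription starts 1355 bases from that of Cd3d on the opposite strand (RefSeq, GRCm38.p6). Its levels were -3.16, -3.67, -4.30 and -4.19 in NZO and -2.88, -3.44, -2.99 and -2.65 in B6. It was well above background on 2 NZO arrays and on all 4 B6 arrays, and the strains overlapped. The log2 fold change of -0.84 (SE 0.28) did not pass adjustment (limma adjusted p = 0.0847). Without NZO array 003 it was -1.06 and passed (limma adjusted p = 0.0249).

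Cd3e encodes CD3 epsilon, and its mean level went the other way without passing the test. Its levels were 2.07, 3.62, 2.41 and 2.46 in NZO and 2.75, 1.84, 2.46 and 2.19 in B6. NZO array 007 was the highest of the 8, and the remaining 3 NZO arrays lay within the range of B6. The log2 fold change was 0.33 (95% interval -0.45 to 1.11, limma adjusted p = 0.578).

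On each array the log2 ratio of the Cd3d signal to the Cd3e signal was -4.69, -6.62, -5.04 and -5.86 in NZO and -4.75, -3.99, -4.28 and -3.49 in B6. Only the difference of this ratio between the strains can be read, and it was -1.43 with 1 NZO array among the B6 values. For Cd3d over Cd3g the difference was -0.26 with overlapping strains. That value is inexact, since Cd3g was well above background on only 2 NZO arrays. Whether the 3 chains differed from each other in their change was not tested.

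CD4 and CD8 are the co-receptors of helper and cytotoxic T cells, and CD4 is also found on some macrophages and dendritic cells. The 2 probes of Cd4, 2995 bases apart in mm9, gave no difference between the strains that passed the test. With probe A_52_P383089 the levels were -2.97, -2.64, -3.42 and -2.92 in NZO and -2.88, -2.88, -3.01 and -2.69 in B6, a log2 fold change of -0.12 (95% interval -0.50 to 0.26). With probe A_55_P2013655 they were 4.07, 4.58, 4.18 and 3.72 in NZO and 3.30, 3.87, 4.03 and 4.16 in B6, a log2 fold change of 0.30 (95% interval -0.24 to 0.84). The strains overlapped with both probes, and the limma adjusted p-values were 0.686 and 0.461.

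Cd8a was at the limit of detection. Probe A_52_P150547 gave -3.33, -6.14, -2.18 and -2.11 in NZO and -6.47, -3.70, -3.50 and -3.28 in B6. It was well above background on 3 arrays of each strain and not on NZO array 007 and B6 array 009, so it was not tested. Among the arrays above background, the 3 NZO values ranged from -3.33 to -2.11 and the 3 B6 values from -3.70 to -3.28. Probe A_52_P443334, with 10 spots, was not well above background on any of the 8 arrays, and no fold is given for it although its B6 signals of -5.59 to -5.08 lay above the NZO signals of -6.11 to -5.71.

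CD79a and CD79b are the signalling partners of the B cell receptor. Cd79b had levels of -1.02, -0.92, -0.65 and -1.35 in NZO and of -0.24, -0.28, -0.04 and -0.46 in B6. All 4 NZO arrays lay below all 4 B6 arrays, with means of -0.99 ± 0.29 and -0.25 ± 0.17 (SD, n = 4 each). The log2 fold change was -0.73 (SE 0.16, limma adjusted p = 0.0195), a signal 1.66-fold higher in B6.

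This value is close to the fold limit of 0.7, and several settings took Cd79b across a limit of the call. The call was lost without NZO array 011 (-0.61, limma adjusted p = 0.0378), without B6 array 009 (-0.73, limma adjusted p = 0.0548) and without B6 array 011 (-0.66, limma adjusted p = 0.057). It was also lost with scan day as a term (-0.69, limma adjusted p = 0.0329) or slide as a fixed term (-0.65), where only 1 slide held both strains. The difference was -0.64 within the first scan day, -0.78 within the second and -0.65 on the slide with both strains, and -0.35 after normexp correction.

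The tested probe of Cd79a gave -2.26, -2.12, -1.96 and -2.24 in NZO and -1.86, -2.06, -1.74 and -2.50 in B6. The strains overlapped and the log2 fold change was -0.10 (95% interval -0.50 to 0.29, limma adjusted p = 0.737). The probe of Cd79a that joins separate stretches was well above background on 3 arrays of each strain and was not tested. Its levels were -3.81, -2.47, -3.33 and -3.30 in NZO and -4.54, -3.71, -3.08 and -3.31 in B6, with NZO array 003 and B6 array 009 at background.

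The log2 ratio of the Cd79b signal to that of the tested Cd79a probe was 1.23, 1.20, 1.30 and 0.89 in NZO and 1.62, 1.78, 1.70 and 2.04 in B6. Every NZO ratio lay below every B6 ratio, by 0.63 on average. After normexp correction this difference was -0.39, and it was not tested.

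Ms4a1 encodes CD20, a surface protein of mature B cells. Its levels were -3.27, -4.31, -2.55 and -3.24 in NZO, where array 007 was at background, and -2.78, -2.47, -2.49 and -3.56 in B6. The strains overlapped, and the log2 fold change of -0.52 had a 95% interval from -1.41 to 0.37 (limma adjusted p = 0.433). The difference was 0.00 within the first scan day and -1.68 within the second, in which NZO array 007 is the only NZO array.

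Klrb1c encodes NK1.1, the receptor by which NK cells of B6 mice are commonly recognised, and neither of its probes entered the test. Probe A_52_P599514 gave -5.23, -5.52, -6.20 and -5.99 in NZO and -6.17, -5.34, -5.13 and -0.66 in B6. Only B6 array 015 was well above background, while of the B6 arrays at background 009 and 010 lay among the NZO values and 011 just above them. Probe A_55_P1979147, 5159 bases away in mm9, gave -4.66, -6.06, -4.59 and -5.62 in NZO and -4.76, -4.33, -3.72 and -4.14 in B6. With this probe B6 array 011 alone was well above background, and array 015 was not. The value of -0.66 was therefore found with 1 probe on 1 array. The neighbouring genes Klrb1a and Klrb1b, of similar sequence, were at background on all 8 arrays. Klrb1f was well above background on NZO array 011 alone, at -1.61.

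Nkg7 encodes a membrane protein of cytotoxic granules in NK and CD8 T cells. With probe A_51_P499195 the levels were -2.66, -2.54, -3.14 and -3.09 in NZO and -2.59, -2.46, -2.27 and -1.68 in B6. The strains overlapped by the lowest B6 array, and the log2 fold change of -0.61 (SE 0.23) passed neither the fold limit nor adjustment (limma adjusted p = 0.124). With probe A_55_P2009582, 382 bases away, the levels were 1.65, 1.96, 1.24 and 1.38 in NZO and 1.77, 1.60, 1.63 and 1.89 in B6. The log2 fold change of this probe was -0.17 (95% interval -0.55 to 0.21, limma adjusted p = 0.559), and it lies within the interval of the first probe, -1.13 to -0.09.

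**Figure D2:**
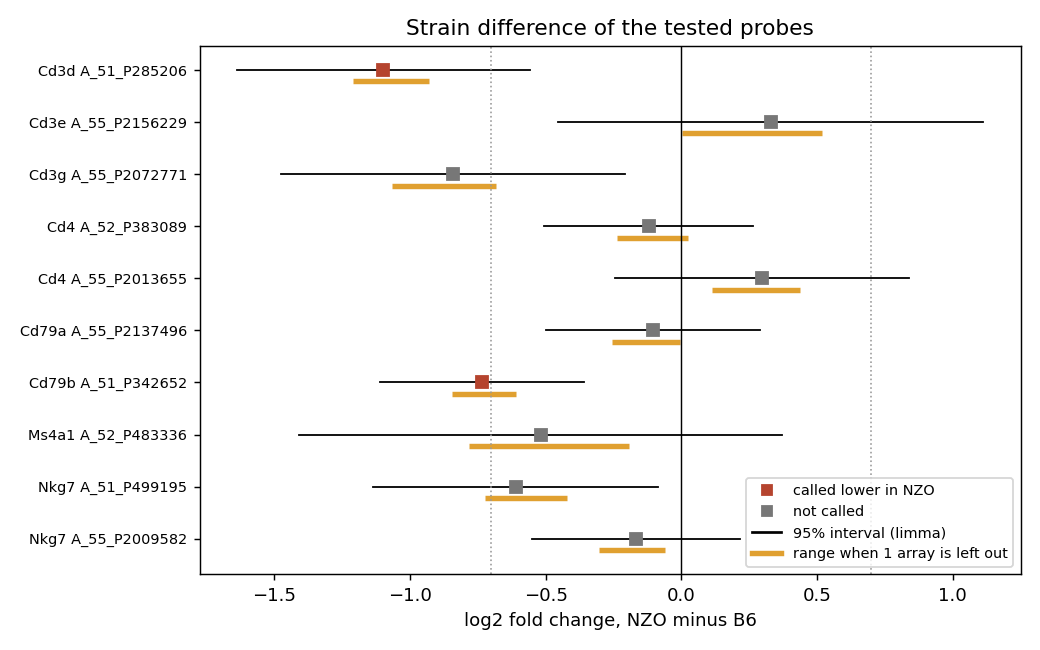
Log2 fold change, NZO minus B6 (x axis), of the 10 tested probes with the 95% interval of limma (black) and the range of values when 1 of the 8 arrays is left out (orange). Dotted lines mark the fold limit of 0.7. Cd3d at -1.10 and Cd79b at -0.73 are the 2 probes called, and the orange range of Cd79b crosses the dotted line while that of Cd3d does not.

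**Figure D3:**
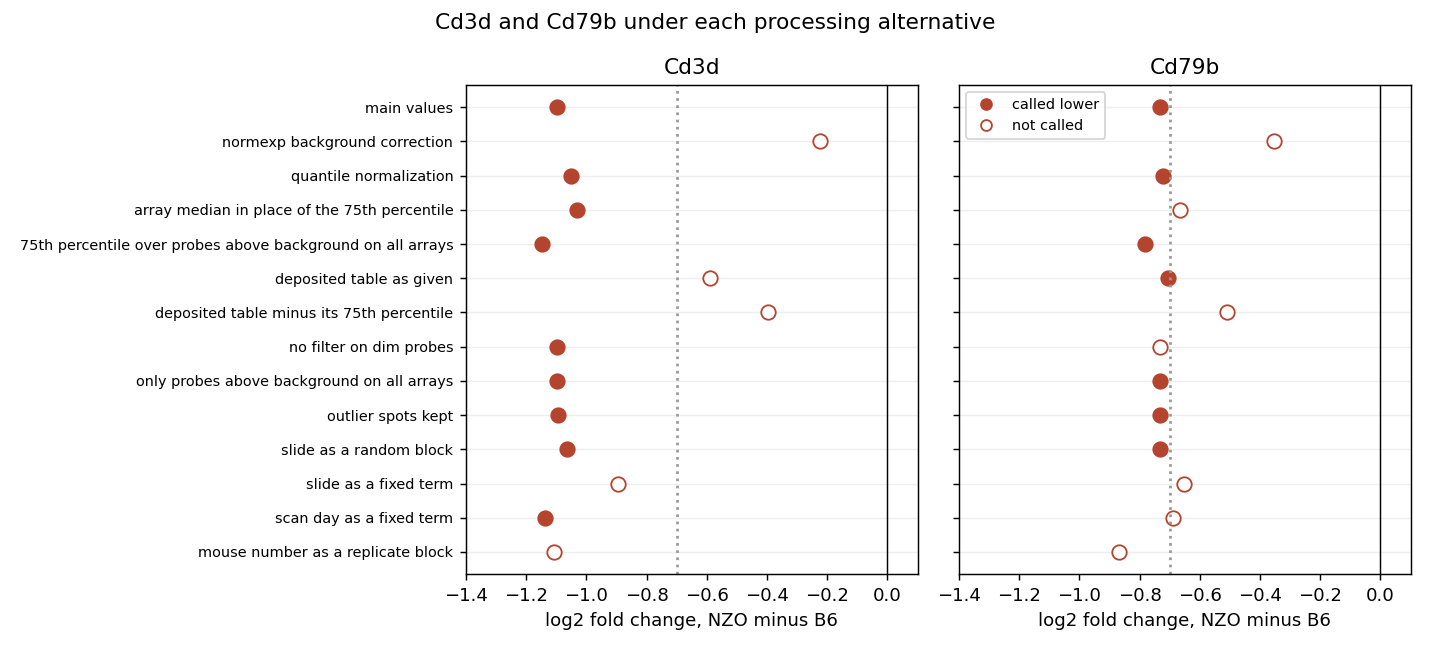
Log2 fold change, NZO minus B6 (x axis), of Cd3d (left) and Cd79b (right) under each processing alternative (y axis), filled where the probe was called, with the fold limit of 0.7 as a dotted line. Both stay below 0 in every setting shown, and both come closest to 0 after normexp background correction, at -0.23 and -0.35.

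Other genes of the same pathways were counted from lists of markers, each gene by its brightest tested probe. Of 32 genes of the T cell receptor and its signalling, 30 were on the array and 19 were tested, of which 2 were higher and 2 lower in NZO (limma adjusted p at most 0.05 and the fold limit). Among those higher was Zap70, the kinase recruited to CD3 (1.06, limma adjusted p = 0.00592). Those lower were Ccr7, a homing receptor of naive T cells (-1.03, limma adjusted p = 0.0115), and the surface protein Thy1 (-0.74, limma adjusted p = 0.0231). Without NZO array 003 or 011, or B6 array 009, 011 or 015, Thy1 was no longer called, with log2 fold changes of -0.83 to -0.59 over all arrays left out. After normexp Zap70 was at 1.00 and called, and Ccr7 (-0.21) and Thy1 (-0.36) were not. The median of the list was -0.30 with 13 of 19 below 0, and it became 0.06 after normexp correction, 0.02 with the deposited table scaled to its 75th percentile and -0.17 without NZO array 003. Of these genes Cd28, Lcp2 and Lef1 entered the test through B6 alone, and the median of the other 16 was -0.27.

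Of 28 genes of the B cell receptor and B cell factors, 17 were tested and 1 was higher in NZO. This was Cd22, an inhibitory co-receptor of B cells, with levels of 0.63 ± 0.11 in NZO and -0.94 ± 0.10 in B6 (SD, n = 4 each), a log2 fold change of 1.57 (limma adjusted p = 2.77e-05). The transcription factor Bcl11a followed in size at -0.71 (limma adjusted p = 0.3). None of the 17 was called lower (0 genes), and 2 were lower and 2 higher with an unadjusted limma p under 0.05. The median was -0.31 with 11 of 17 below 0, and 0.04 after normexp correction. It was -0.17 without NZO array 003, -0.15 without NZO array 007 and -0.19 without B6 array 011, and -0.09 over the 13 genes well above background on all 8 arrays. Pax5, the defining factor of the B lineage, and the antibody genes Ighm and Igkc were the 3 genes at background on all 8 arrays. Jchain, Mzb1, Vpreb3 and Cd22 were among the 13 well above background on all 8.

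Of 33 genes of NK and cytotoxic lymphocytes, 12 were tested, of which 2 were higher and 1 lower. Klra8, a Ly49 receptor gene, had levels of -2.92 ± 0.24 in NZO and was at background on all 4 B6 arrays (limma adjusted p = 0.0142). For a fold, each B6 array was set to the higher of its own value and its lowest signal well above background. The signal was then 2.73-fold higher in NZO. This fold depends on how the background is treated and is not a strict lower bound. The probe entered the test through NZO alone, and after normexp its log2 fold change was 0.40 and it was not called. The Ly49 genes are near-identical copies of each other, and the probe may bind several of them. Gzmk, a granzyme, was higher by 1.38 (limma adjusted p = 0.0107), and Il2rb, a receptor chain for interleukins 2 and 15, had a log2 fold change of -1.29 (limma adjusted p = 0.00694). Il2rb was well above background on 3 NZO arrays and entered the test through B6 alone, as did Tbx21. Over the 9 genes well above background on all 8 arrays, 1 was called higher and 0 lower (limma). After normexp Gzmk was at 0.99 and called, and Il2rb was at -0.21 and not called. Of the 32 genes on the array 9 were at background on all 8 arrays, among them Ncr1, Klrk1 and Cd160, which mark NK cells. The 9 genes well above background on all 8 arrays included Klrd1, Cd244, Gzma, Prf1 and Ccl5. The median of the list was -0.15, turning to 0.07 after normexp correction and 0.04 with the scaled deposited table. It was -0.00256 without B6 array 015, -0.07 without NZO array 009 and -0.24 without B6 array 009.

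Of 9 genes in the list named for liver-resident lymphocytes, 7 were tested and 1 was lower in NZO. This was Cxcr3, a chemokine receptor of activated T and NK cells (-1.08, limma adjusted p = 0.00967), and Cxcr6, the chemokine receptor of liver NKT cells, was at -0.51 (limma adjusted p = 0.0759). After normexp Cxcr3 was at -0.26 and not called. Among the other genes Zbtb16 was at 0.41, Itga1 at -0.03 and Cd1d1 at -0.02. The Cd1d1 probe gave 88.4% of the summed signal of the tested genes. Whether the signals of this list came from lymphocytes was not tested. The median of the list was -0.10 with 6 of 7 below 0. This median was -0.03 without NZO array 007 and -0.24 without NZO array 011. Cd69 was at background on all 8 arrays.

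**Figure D4:**
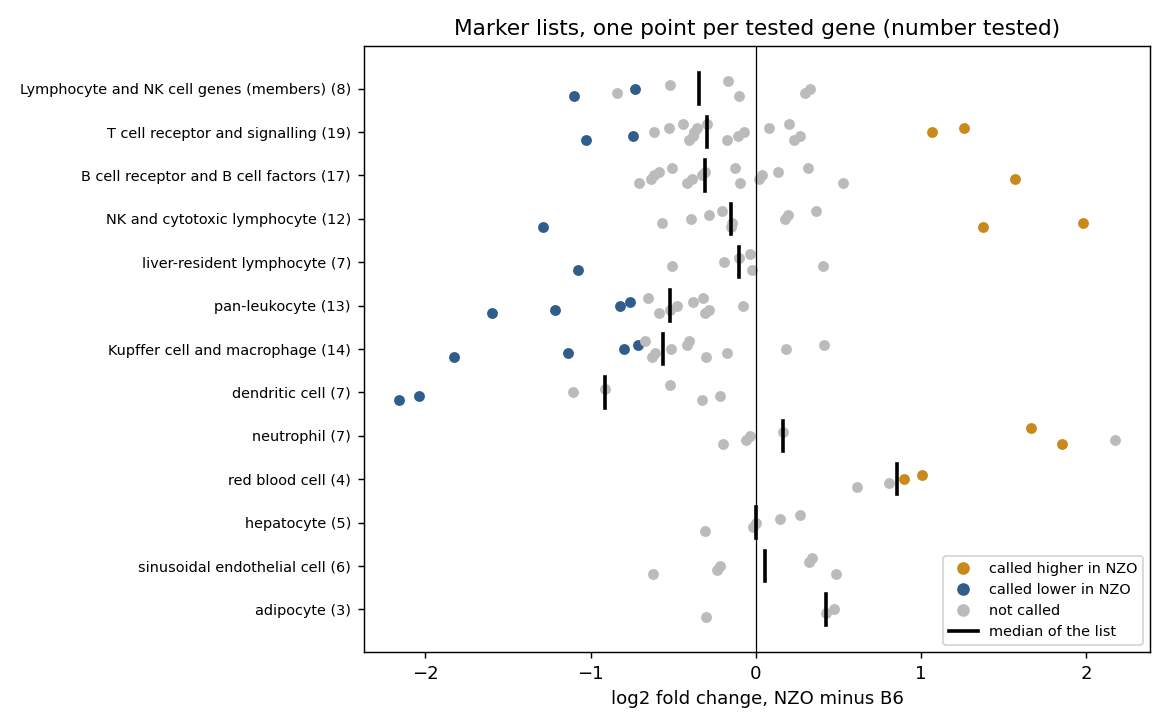
Log2 fold change, NZO minus B6 (x axis), of each tested gene in 13 marker lists (y axis, number tested in parentheses), coloured where called, with the median as a bar. All 13 pan-leukocyte genes lie below 0, while genes called higher and lower both occur in the T cell and NK lists.

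Markers of all leukocytes and of other cell types were examined beside these genes. All 13 pan-leukocyte genes were tested and had values below 0 (median -0.52, and -0.28 after normexp), and 4 were called lower. These were Ptpn22, Cd53 (-1.22), Cd52 (-0.82) and Arhgdib (-0.76). Ptpn22 was at background on all 4 NZO arrays, and 2.67-fold lower when these arrays were set in the way given for Klra8. Ptpn22 entered the test through B6 alone. Of the 2 tested Arhgdib probes only the probe counted was called, while the other of the 2 tested Lcp1 probes was called lower. Over the 12 genes well above background on all arrays 3 were called lower (limma), with a median of -0.50. The summed level of the list, in units of the 75th percentile, was 23.7, 22.8, 20.5 and 21.1 in NZO and 27.9, 29.2, 31.0 and 35.8 in B6. The Lcp1 probe gave 26% of the summed signal. Such shares are of probe signal and do not compare amounts of RNA between genes. None of the 13 was at background on all arrays, and the sums of the strains did not overlap. After normexp Cd52 (-0.78) and Arhgdib (-0.74) were called, while Cd53 (-0.18) and Ptpn22 (-0.16) were not. Ptprc, which encodes CD45 and defines leukocytes, was at -0.52 (limma adjusted p = 0.083).

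All 14 genes of Kupffer cells and macrophages, the resident phagocytes of the liver, were tested, and 4 were lower in NZO. These were Marco (-1.83), Clec4f (-1.13), Fcna (-0.79) and Cd5l (-0.71). Of the 3 tested Csf1r probes, 1 other than the probe counted was called lower. The count lower was 5 after normexp and 8 with the deposited table as given. The median was -0.56, and -0.60 with 13 of 14 below 0 with slide as a fixed term, where only 1 slide held both strains. The summed level was 174, 177, 146 and 152 in NZO and 220, 237, 269 and 326 in B6. The Cd5l probe gave 31.1% of the summed signal, and 12 of the 14 genes had values below 0. Of 7 dendritic cell genes tested, 2 were lower, Cd209a and Itgax. Cd209a was at background on all 4 NZO arrays, and 1.83-fold lower when these arrays were set in the way given for Klra8. Itgax was well above background on only 2 NZO arrays, so its log2 fold change of -2.04 is inexact. Both entered the test through B6 alone, as did Flt3 and Ccr9. Of the 3 genes well above background on all 8 arrays 0 were called by the probe counted (limma), with a median of -0.33. Another of the 3 tested Siglech probes was called lower, as was the other of the 2 tested Zbtb46 probes. The sum of the dendritic list was 81.2, 111, 139 and 153 in NZO and 125, 138, 128 and 160 in B6. The Siglech probe gave 99.1% of the summed signal, and Xcr1 was at background on all arrays. After normexp 0 of the 7 dendritic cell genes were called (limma), with Cd209a at -0.10 and Itgax at -0.37, and the median went from -0.92 to -0.09.

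Of 4 red blood cell genes, all with values above 0, Hba-a1 (1.00) and Alas2 (0.90) were higher in NZO, and the sum was 318, 366, 470 and 293 in NZO and 197, 165, 208 and 155 in B6, with 73.7% from Hba-a1. Of 7 neutrophil genes tested, Camp (1.85) and Ly6g (1.66) were higher and 3 had values below 0, S100a9 among them (-0.20). The number below 0 was 0 without B6 array 011 or 015 and 1 without NZO array 009. The median was 0.16, and it was 0.08 without NZO array 003 and 0.25 without B6 array 011. With the deposited table as given it was -0.07. Over the 6 genes well above background on all arrays it was 0.06, with 2 called higher (limma). Mpo, at 2.17 and not called, was well above background on 2 B6 arrays and entered the test through NZO alone. The sum was 14.9, 11.6, 11.1 and 14.7 in NZO and 6.95, 5.53, 10.9 and 12.9 in B6, and the sums of the strains overlapped. The largest share came from S100a9 (32.6%). No gene of either list was at background on all arrays. The call of Itgax held only with all arrays or without NZO array 007 (-2.50 to -1.59), that of Camp was lost without NZO array 003 or 011 or B6 array 009, 010 or 011 (1.60 to 2.25), that of Hba-a1 without B6 array 010 or 015 (0.82 to 1.13), that of Cd5l without NZO array 009 or 011 or B6 array 011 or 015 (-0.77 to -0.65), and that of Arhgdib without NZO array 009 or B6 array 015 (-0.81 to -0.67), with ranges over all arrays left out. The part of these markers in the differences of Cd3d and Cd79b was not tested.

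For hepatocytes, none of 5 genes was called (0 genes, and 0 with an unadjusted limma p under 0.05), with Tat at -0.31 and Alb at 0.27. For sinusoidal endothelial cells none of 6 was called (0 genes, 2 with an unadjusted limma p under 0.05). Lyve1 at -0.62 and Stab2 at 0.48 passed adjustment (limma adjusted p = 0.0241 and 0.00889) but not the fold limit. Without NZO array 003, 1 of the 6 was called lower. For adipocytes none of 3 tested was called (0 genes, 1 with an unadjusted limma p under 0.05). Car3 was at 0.47 (limma adjusted p = 0.0133, below the fold limit), Cidec at 0.42 and Fabp4 at -0.30. The Car3 probe gave 99.2% of the summed signal of the tested genes, and whether it came from adipocytes was not tested. Adipoq, Plin1 and Lep were at background on all 8 arrays.

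B6 array 015 stood above the mean of its strain for 15 of 19 T cell genes, 10 of 12 NK genes, 12 of 13 pan-leukocyte genes and 13 of 14 Kupffer cell genes. Among the 10 tested probes of the T, B and NK cell genes it held the highest B6 level of Cd3d, Cd3g, both Cd4 probes and both Nkg7 probes, and the lowest B6 level of Cd79a, Cd79b and Ms4a1. Of the 17 tested genes of the B cell list, in contrast, 11 were above their B6 mean on this array. Without this array Cd3d was at -0.93 (limma adjusted p = 0.0324) and Cd79b at -0.80 (limma adjusted p = 0.0274), both still called. Of the other genes named from the lists, Cd52 (-0.69), Arhgdib (-0.67), Cd5l (-0.65), Thy1 (-0.67), Itgax (-1.85) and Hba-a1 (0.94) were not called without it. The count of pan-leukocyte genes called lower fell to 2 of 13 and that of Kupffer cell genes to 3 of 14, while their medians were -0.44 and -0.43.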

How the data were processed

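The authors deposited the scanner output of 8 arrays, in which Agilent Feature Extraction (11.0.1.1 per the file headers, 9.1 per the labels) lists intensity values for 59305 spots besides controls, and a table whose intensity values equal the raw median intensities. The processed signal, corrected for background by the software and not scaled between arrays, was taken as log2 minus the 75th percentile of each array. Control spots were dropped together with 96 to 137 outlier spots on each array, and replicate spots of a probe were averaged. A probe counted as detected on an array when at least 50% of its spots were well above background. Probes detected on all 4 arrays of at least 1 strain (27639) were compared with limma 3.58.1 in R 4.3.3 (with the data.table package, 1.17.8), without covariates. The fit was tested on simulated data. Python 3.11.15 with matplotlib 3.10.9 made the plots.

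All probes of the 10 genes are named. In each other list, a gene counted by its tested probe with the highest mean, and up to 4 called genes of largest change are named, or the 2 of largest change on all 8 arrays where fewer than 2 were called. The values of 1 gene that this rule names are not reported here, and it is part of the counts and medians. The genes and lists were chosen with earlier results of these data known. The paper's t-test with Welch correction, with its thresholds, is called the methods' t-test. Alternatives were the background correction (normexp, offset 50), the scaling, the deposited table, the filters, slide and scan day as batches, the sample number as a block, the test, and leaving out each array. The number of arrays limits the precision.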

Additional observations from a re-analysis of the deposited data

Results flagged for a closer look

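The Cd8a probe A_52_P150547 had 1 array far from the others of its strain. On B6 array 009 its level was -6.47, below -3.70, -3.50 and -3.28 on the other B6 arrays, and it was not well above background there. The gap was 0.87 of the range of the 4 values, against a limit of 0.829 for Dixon's test. Of 30 groups examined (15 probes in 2 strains) 1 met this limit, and chance flags about 1 in 20 groups.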

How the results depend on the processing

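The main setting called 1198 probes higher and 1460 lower in NZO, 2 of the latter among the 10 tested probes of the lymphocyte and NK cell genes. No alternative called any of these probes higher (0 probes). All probes called higher numbered 615 after normexp correction, 575 in the deposited table as given and 497 with slide as fixed term. Those lower numbered 583 after normexp, 818 with the deposited table scaled to its 75th percentile, 963 when only probes above background on all arrays were tested and 890 with the adjusted methods' t-test. Of the lymphocyte and NK cell probes, 0 were lower after normexp, with the scaled deposited table, with slide as fixed term and with the adjusted methods' t-test. With array median scaling, the deposited table as given, no filter or scan day as a term 1 was lower. With unadjusted p-values 3 were lower (Cd3d, Cd3g and Cd79b), beside 1956 of all 27639 probes with limma and 1609 with the methods' t-test. The deposited table as given moved the median of all probes from 0.01 to -0.15. Over the 8 genes the median log2 fold change went from -0.34 to 0.00 after normexp and -0.07 with the scaled deposited table. Of 23 other genes called under the naming rule, 13 were called after normexp, 14 with the scaled deposited table, 12 with the deposited table as given, 3 with slide as fixed term and 14 with the adjusted methods' t-test. Causes of these shifts were not tested. With slide as fixed term only the 1 NZO and 2 B6 arrays of 1 slide inform the strain difference. The counts called there therefore cannot be set against those of the main setting.

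Leaving out 1 array gave 1055 to 1219 probes higher, 1221 to 1464 lower and 1 to 3 of the lymphocyte and NK cell probes lower. Some values that were not called changed sign. The Cd4 probe A_52_P383089 was at 0.091 after normexp, 0.089 with the scaled deposited table and -0.24 to 0.024 when 1 array was left out, above 0 only without NZO array 009. Ms4a1 was at 0.032 after normexp and 0.00548 with the scaled deposited table, and Cd79a at 0.034 after normexp and 0.021 with slide as fixed term. Bcl11a was at 0.25 with the slide as a fixed term.

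Only the numbers 009 and 011 occur in both strains, and the deviations of the arrays with the same number correlated at -0.26 and 0.00 (Pearson's r across probes), so they are not taken as paired. With the number as a replicate block, which leaves 4 of the 8 arrays to inform the strain difference, 72 probes were higher, 134 lower and 0 of the lymphocyte and NK cell probes lower, with 0 of the 23 other genes called, and with Cd3d at -1.11, Cd79b at -0.87, Cd3e at -0.17 and Tat at 0.037. The dim probes lie close to background, which limits how exactly their folds can be read. Whether it shaped their shifts was not tested. Cd3g, at background on 2 NZO arrays, went from -0.84 to -0.03 after normexp and to -0.12 with slide as fixed term.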
